A study of Mus musculus with 8 samples.

Results

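Mitochondrial complex I was examined through the genes whose symbol starts with Nduf, which were 43 of the 8562 genes in a table of expression in epididymal white adipose tissue (eWAT). The members were taken by symbol alone and not by any measured value. They comprised 7 core subunits, 9 accessory subunits of the peripheral arm, 19 accessory subunits of the membrane arm, the acyl carrier subunit Ndufab1, the pair Ndufa4 and Ndufa4l2, and 5 assembly factors named Ndufaf. The core subunits encoded in mitochondrial DNA carry other names and were not analysed here.

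The mice were males of 6 weeks on a C57BL/6 background. HuR-FKO mice carried AdipoQ-Cre and floxed alleles of Elavl1, which encodes the RNA-binding protein HuR, and the Ctrl mice were littermates with the same floxed HuR alleles and no Cre. The adiponectin promoter drives Cre in adipocytes, so the other cells of the tissue keep HuR in both genotypes. Each replicate was the pooled tissue of 3 mice, and there were 2 pools per genotype. A pool was split for sequencing of its mRNA and of its ribosome-protected fragments (RPF, the stretches of mRNA that a ribosome covers), which made 8 libraries in all. Values are RPKM, coding reads of a gene relative to its coding length and to the depth of the library.

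Complex I takes electrons from NADH, passes them to ubiquinone and pumps protons across the inner mitochondrial membrane. Its peripheral arm stands in the matrix and holds the flavin and the iron-sulfur clusters, and its membrane arm holds the proton pumps. Core subunits carry out the reaction and are shared with bacteria, accessory subunits surround and stabilize them, and assembly factors help to build the complex and then leave it. In white adipocytes this respiration supplies energy for lipid synthesis and secretion.

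Total coding reads were 5223721 and 5967917 in the HuR-FKO mRNA libraries, against 5456731 and 8060054 in the Ctrl mRNA libraries. The RPF libraries were shallower, with 1311977 and 531966 reads in HuR-FKO, against 1153205 and 723940 in Ctrl. Single members had 33 to 3360 mRNA reads and 4 to 490 RPF reads per library, and the HuR-FKO replicate 2 RPF library held 8 members with fewer than 20 reads. Elavl1 itself was at 41.6 and 43.3 RPKM in HuR-FKO mRNA, against 40.8 and 49.8 RPKM in Ctrl mRNA (log2 difference -0.08, limma adjusted p = 0.696). These groups overlapped, so the mRNA of the targeted gene gave no check of the genotype labels. In RPF Elavl1 was at 56.0 and 63.3 RPKM in HuR-FKO, against 64.6 and 81.8 RPKM in Ctrl. Both HuR-FKO libraries were below both Ctrl libraries there, as for 24.1% of all genes. Listed adipocyte markers summed to 76636 and 73716 RPKM in HuR-FKO mRNA, against 62058 and 63380 RPKM in Ctrl mRNA, with all 10 markers analysed. Fabp4 alone averaged 38306 RPKM in HuR-FKO and 29342 RPKM in Ctrl, whereas the median difference of the 10 markers was 0.02 on the log2 scale, with 6 above and 4 below 0. Of the other marker lists, 6 of 7 red blood cell genes fell and 3 of 9 macrophage genes rose in HuR-FKO mRNA. By the same limma test, described below, 6.54% of all genes fell and 7.5% rose. Summed levels of red blood cell genes were 3673 and 6087 RPKM in HuR-FKO against 12477 and 8455 RPKM in Ctrl. Those of macrophage genes were 2588 and 2355 RPKM in HuR-FKO against 2182 and 2032 RPKM in Ctrl. None of 7 endothelial, 8 mesothelial, 2 brown adipocyte and 1 skeletal muscle markers passed, and of the adipocyte markers Lep fell and Pnpla2 rose. With the trend on transcript length and coding G+C content removed, none of the 5 annotated red blood cell genes passed. Their differences all stayed below 0, with a median of -0.82. In that fit 4 of 8 annotated macrophage genes rose, and of the 10 adipocyte markers 3 rose and 1 fell. Of all 8245 annotated genes, 610 rose and 414 fell there. The part of these cells in the differences given here was not tested. In whole tissue, fewer cells of a type and less RNA per cell cannot be told apart.

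Promoter sequence from RefSeq (GRCm38.p6, 250 bases before to 50 bases after the start of the gene) was matched by symbol for 37 of the 43 members, among them 9 of the 10 whose mRNA was lower in HuR-FKO. It was searched on both strands for short core sequences of factors known to act on respiratory genes. NRF1 (GCATGCGC) matched in 3 members (8.11%, against 6.63% of the 6318 genes of the table with a promoter entry). The ETS family core bound by GABPA (CCGGAAG) matched in 5 members (13.5% against 21.3%), and the ESRRA core (CAAGGTCA) in 1 member (2.70% against 1.23%). The YY1 core (AAGATGGC) matched in 7 members (18.9% against 5.90%). A match is a description of the letters and not a binding site.

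The YY1 matches are shown because they were the most frequent and lay in 1 place. All began 23 to 39 bases after the start, and in all 7 members the ATG within the match was the annotated start codon of the protein, as it was in 124 promoters of the table. Each is given as 30 bases on the strand of the gene, with the match in capitals.
Ndufa3 (chr7:3617384-3617413, plus strand): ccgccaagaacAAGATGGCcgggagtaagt
Ndufa9 (chr6:126849097-126849126, minus strand): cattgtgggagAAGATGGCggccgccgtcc
Ndufb8 (chr19:44555393-44555422, minus strand): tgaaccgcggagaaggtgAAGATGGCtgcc
Ndufc1 (chr3:51408915-51408944, minus strand): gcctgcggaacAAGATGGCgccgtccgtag
Ndufs4 (chr13:114388045-114388074, minus strand): gcgtttgcctacaggAAGATGGCggcggtc
Ndufs6 (chr13:73328433-73328462, minus strand): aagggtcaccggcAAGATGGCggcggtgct
Ndufs7 (chr10:80249462-80249491, plus strand): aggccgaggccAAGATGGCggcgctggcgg
Of these, Ndufb8 and Ndufs6 were among the members lower in HuR-FKO mRNA.

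The other matches in members lower in HuR-FKO mRNA are shown in the same way, since these are the promoters of the genes described next. Capitals mark the match, which reads on the opposite strand in Ndufb6, Ndufs5 and Ndufs8. It began 20 bases before the start in Ndufb7 (ETS core), 232 bases before it in Ndufb6 (ETS core), 16 bases after it in Ndufs8 (ETS core) and 228 bases before it in Ndufs5 (ESRRA core).
Ndufb7 (chr8:83566727-83566756, plus strand): gcctagatgacCCGGAAGacactgaagggg
Ndufb6 (chr4:40279635-40279664, minus strand): tcgtccttgttCTTCCGGtcccctccccta
Ndufs8 (chr19:3912741-3912770, minus strand): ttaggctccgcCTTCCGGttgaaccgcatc
Ndufs5 (chr4:123718396-123718425, minus strand): tttctcgagtgTGACCTTGctcaagtagca
The Ndufa11 promoter held the NRF1 core on both strands, 60 and 58 bases before the start, where the letters overlap. It is shown from 100 bases before to 20 bases after the start, with both matches in capitals.
Ndufa11 (chr17:56717662-56717781, plus strand): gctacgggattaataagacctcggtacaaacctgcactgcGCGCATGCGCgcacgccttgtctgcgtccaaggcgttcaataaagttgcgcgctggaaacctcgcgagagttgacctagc

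The members differed widely in level. Ndufa4, a small subunit first purified with complex I and now assigned to cytochrome c oxidase, had the highest mRNA, at 648 and 624 RPKM in HuR-FKO against 679 and 855 RPKM in Ctrl. Ndufa2, an accessory subunit with a thioredoxin fold, was at 354 and 312 RPKM in HuR-FKO against 455 and 449 RPKM in Ctrl. Ndufa7, another accessory subunit of the peripheral arm, was at 357 and 346 RPKM in HuR-FKO against 443 and 458 RPKM in Ctrl. The libraries of Ndufa2 and Ndufa7 overlapped within each genotype, so the order of these neighbours was not beyond their spread.

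At the low end stood assembly factors. Ndufaf6, which acts early in the assembly of the peripheral arm, was at 6.31 and 7.53 RPKM in HuR-FKO against 7.69 and 7.93 RPKM in Ctrl. Ndufaf1, a chaperone of membrane arm assembly, was at 20.3 and 25.7 RPKM in HuR-FKO against 24.8 and 25.5 RPKM in Ctrl. Ndufaf2, a paralog of the subunit Ndufa12 that leaves when Ndufa12 enters, was at 25.7 and 21.5 RPKM in HuR-FKO against 24.3 and 29.7 RPKM in Ctrl. These genes overlapped between genotypes in the mRNA libraries, except Ndufaf6, whose HuR-FKO libraries were both below the Ctrl libraries.

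The 36 structural subunits, which stand in the complex side by side, lay much closer together. Their mean mRNA levels ran from 81.8 (Ndufb4) to 351 RPKM (Ndufa7) in HuR-FKO, a 4.30-fold range, and from 86.1 (Ndufb4) to 452 RPKM (Ndufa2) in Ctrl, a 5.25-fold range. The RPF levels were spread more widely, from 78.3 (Ndufb4) to 709 RPKM (Ndufb3) in HuR-FKO, a 9.06-fold range, and from 95.1 (Ndufa6) to 685 RPKM (Ndufb3) in Ctrl, a 7.20-fold range. On the log2 scale the SD across the 36 subunits was 0.60 in HuR-FKO and 0.59 in Ctrl for mRNA, and 0.77 in HuR-FKO and 0.69 in Ctrl for RPF. A copy gene of Ndufb4 is annotated, and the counting could have divided reads between them, so its low level is uncertain.

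To ask whether the loss of HuR changed the mRNA of complex I genes, HuR-FKO and Ctrl mRNA libraries were compared with limma on log2(RPKM + 1), with p-values adjusted over all 8562 genes and a threshold of 0.05. Of the 43 members, 10 fell and none rose, against a background of 6.54% of all genes lower and 7.5% higher. No member had a positive difference at an unadjusted p under 0.05, and voom on recovered reads also called 0 higher. The difference was below 0 for 42 of 43 members, with a median of -0.28 on the log2 scale against 0.025 for all genes. Both HuR-FKO libraries were below both Ctrl libraries for 34 members, where 27.8% of all genes were, and above them for 0 members, where 32.5% of all genes were. Together the members took 0.384% and 0.385% of coding reads in HuR-FKO mRNA, against 0.456% and 0.495% in Ctrl mRNA.

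The members that fell are shown in the plot of levels by library. Of the 19 membrane arm accessory subunits, 7 fell, where 6.54% of all genes did, and among these 7 were those with the largest differences.

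**Figure D1:**
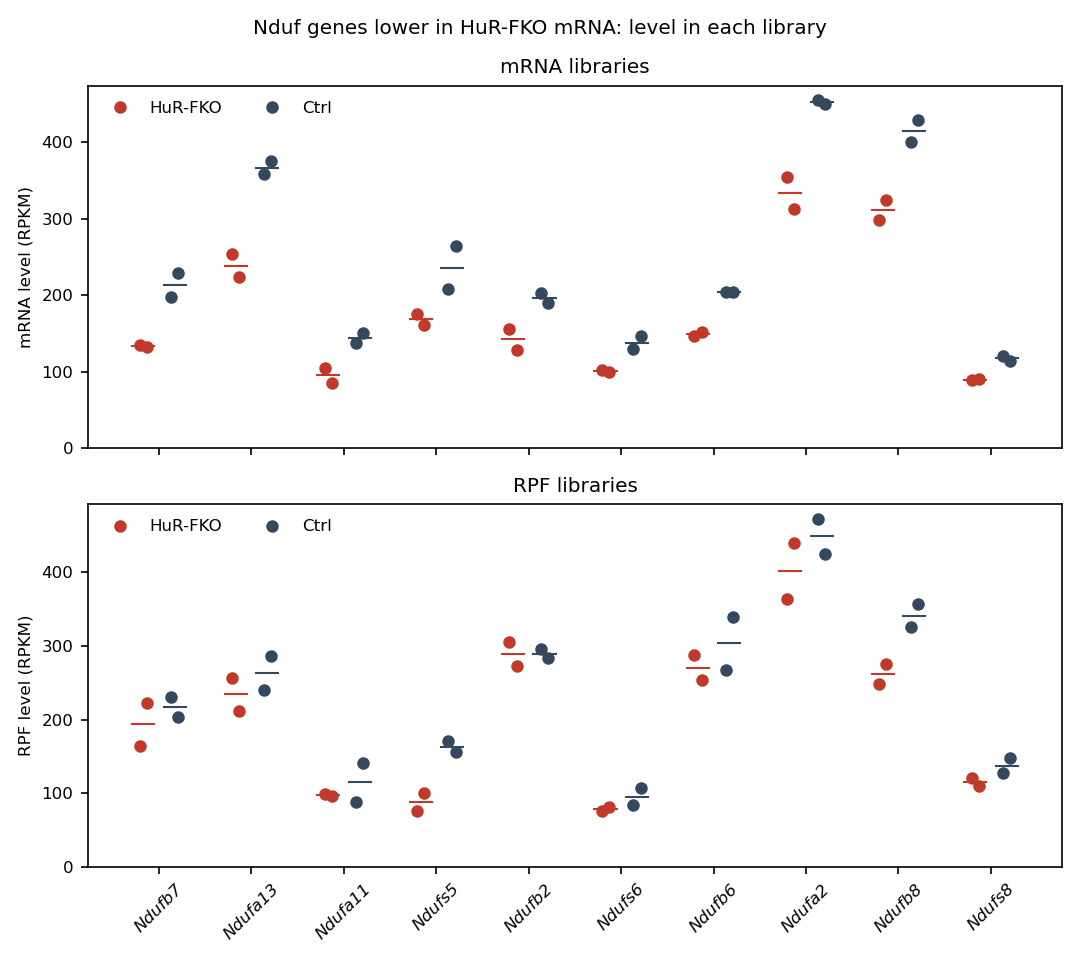
Level (RPKM) of the 10 Nduf genes lower in HuR-FKO mRNA, in mRNA libraries (top) and RPF libraries (bottom), with HuR-FKO left of Ctrl for each gene; points are libraries (n = 2 per group) and lines are group means. In mRNA, by which these genes were chosen, both HuR-FKO points lie below both Ctrl points for every gene drawn (27.8% of all genes). In RPF both HuR-FKO points do so for 4 of the 10, Ndufs5, Ndufs6, Ndufb8 and Ndufs8 (24.1% of all genes).

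Ndufb7, a subunit on the intermembrane space face of the distal membrane arm, was at 135 and 132 RPKM in HuR-FKO mRNA, against 197 and 230 RPKM in Ctrl mRNA. The HuR-FKO pools almost coincided and lay well below both Ctrl pools (log2 difference -0.67 ± 0.12 SE, limma adjusted p = 0.00673). Ndufa13, also known as GRIM19 and needed for assembly of the membrane arm, was at 253 and 223 RPKM in HuR-FKO, against 358 and 375 RPKM in Ctrl (-0.62 ± 0.12, limma adjusted p = 0.00857). Ndufa11, a subunit at the junction of the membrane arm with complex III in the supercomplex, was at 105 and 85.9 RPKM in HuR-FKO, against 138 and 150 RPKM in Ctrl (-0.59 ± 0.13, limma adjusted p = 0.0169). These were the largest falls of the family.

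Ndufs5, a subunit on the intermembrane space side of the proximal membrane arm, was at 175 and 161 RPKM in HuR-FKO mRNA, against 208 and 264 RPKM in Ctrl mRNA (-0.47 ± 0.14, limma adjusted p = 0.0456). The Ctrl pools were farther apart here than the nearest HuR-FKO and Ctrl pools. The other membrane arm subunits that fell, Ndufb2, Ndufb6 and Ndufb8, belong to its distal part. Ndufb2 was at 156 and 128 RPKM in HuR-FKO against 202 and 190 RPKM in Ctrl, a log2 difference of -0.47. Ndufb6 was at 146 and 152 RPKM in HuR-FKO against 204 and 204 RPKM in Ctrl, a log2 difference of -0.45. Ndufb8, whose protein is widely used as a marker of assembled complex I, was at 299 and 324 RPKM in HuR-FKO against 400 and 428 RPKM in Ctrl, a log2 difference of -0.41.

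Of the 9 accessory subunits of the peripheral arm, 2 fell, where 6.54% of all genes did. For all 9 both HuR-FKO libraries were below both Ctrl libraries, where 27.8% of all genes were. Ndufs6, a zinc-binding subunit needed late in assembly, was at 102 and 99.6 RPKM in HuR-FKO mRNA, against 129 and 147 RPKM in Ctrl mRNA (-0.45 ± 0.12, limma adjusted p = 0.0336). Ndufa2, with the values given above, fell by 0.44 on the log2 scale.

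Of the 7 core subunits, 1 fell, where 6.54% of all genes did. Ndufs8, which carries iron-sulfur clusters on the way to ubiquinone, was at 89.4 and 90.3 RPKM in HuR-FKO mRNA, against 121 and 114 RPKM in Ctrl mRNA (-0.38 ± 0.11, limma adjusted p = 0.0485), just past the threshold. Ndufs7, which lies at the ubiquinone site, was at 189 and 133 RPKM in HuR-FKO against 203 and 220 RPKM in Ctrl. Its log2 difference of -0.41 was larger than that of Ndufs8, but its HuR-FKO pools were far apart and it did not pass (limma adjusted p = 0.113).

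The core subunits of the NADH-oxidizing end of the complex, Ndufv1, Ndufv2 and Ndufs1, had smaller differences, none of which passed. Ndufv1, which binds NADH and the flavin, was at 138 and 138 RPKM in HuR-FKO against 160 and 173 RPKM in Ctrl, a log2 difference of -0.27. Ndufs1, the largest subunit and carrier of several iron-sulfur clusters, was at 79.6 and 87.4 RPKM in HuR-FKO against 92.9 and 97.5 RPKM in Ctrl, a log2 difference of -0.19. Ndufv2, the partner of Ndufv1, was at 155 and 143 RPKM in HuR-FKO against 150 and 192 RPKM in Ctrl, and its groups overlapped. Ndufs3, a scaffold of the ubiquinone-reducing part, was at 173 and 174 RPKM in HuR-FKO against 196 and 203 RPKM in Ctrl, with a log2 difference of -0.20.

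None of the 5 Ndufaf assembly factors passed, with log2 differences of -0.19 to -0.13, and the HuR-FKO and Ctrl libraries of Ndufaf1, Ndufaf2 and Ndufaf3 overlapped. Ndufa4l2, a paralog of Ndufa4 induced by hypoxia, was at 45.1 and 39.5 RPKM in HuR-FKO against 49.5 and 81.1 RPKM in Ctrl. Its log2 difference of -0.57 was among the largest but did not pass (limma adjusted p = 0.0822), since the Ctrl pools were far apart. Ndufc2, a membrane arm subunit, was the only member with a difference above 0, at 229 and 193 RPKM in HuR-FKO against 212 and 195 RPKM in Ctrl (0.05 ± 0.12).

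These calls rested on few libraries and on how the values were treated. Without HuR-FKO replicate 1 or without HuR-FKO replicate 2, none of the 43 members passed, and lower calls over all genes also dropped, to 1.11% and 1.13%. Without Ctrl replicate 1 there were 16 lower members, where 8.37% of all genes were lower, and without Ctrl replicate 2 there were 6, where 6.16% of all genes were. The median difference of the members stayed between -0.36 and -0.22 in these 4 fits. A fit shared with the RPF libraries gave the members the same differences but called 0 of them, where 1.21% of all genes were lower. Coding exons of Ndufa11, Ndufb2, Ndufb6 and Ndufb8 overlap another annotated gene, over 70 of 429 bases for Ndufa11 (Vmac, opposite strand), 145 of 315 for Ndufb2 (Gm42420, same strand), 66 of 384 for Ndufb6 (Smim27, opposite strand) and 134 of 558 for Ndufb8 (Gm20538, same strand). Whether the counting used strand is not given in the sources used here, so the values of these genes are uncertain.

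In the RPF libraries, which show how many ribosomes were on these mRNAs, no member passed by limma, against a background of 0.327% of all genes higher and 0.117% lower. At an unadjusted p under 0.05 there were 4 members, Ndufs5, Ndufb8, Ndufc1 and Ndufb5, and voom on recovered reads called 1, Ndufs5. The RPF difference was below 0 for 32 of 43 members, with a median of -0.18 against -0.05 for all genes. Both HuR-FKO libraries were below both Ctrl libraries for 17 members, where 24.1% of all genes were, and above them for 1 member, Ndufs3, where 17.7% of all genes were. The members took 0.485% and 0.444% of coding reads in HuR-FKO RPF, against 0.510% and 0.518% in Ctrl RPF.

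**Figure D2:**
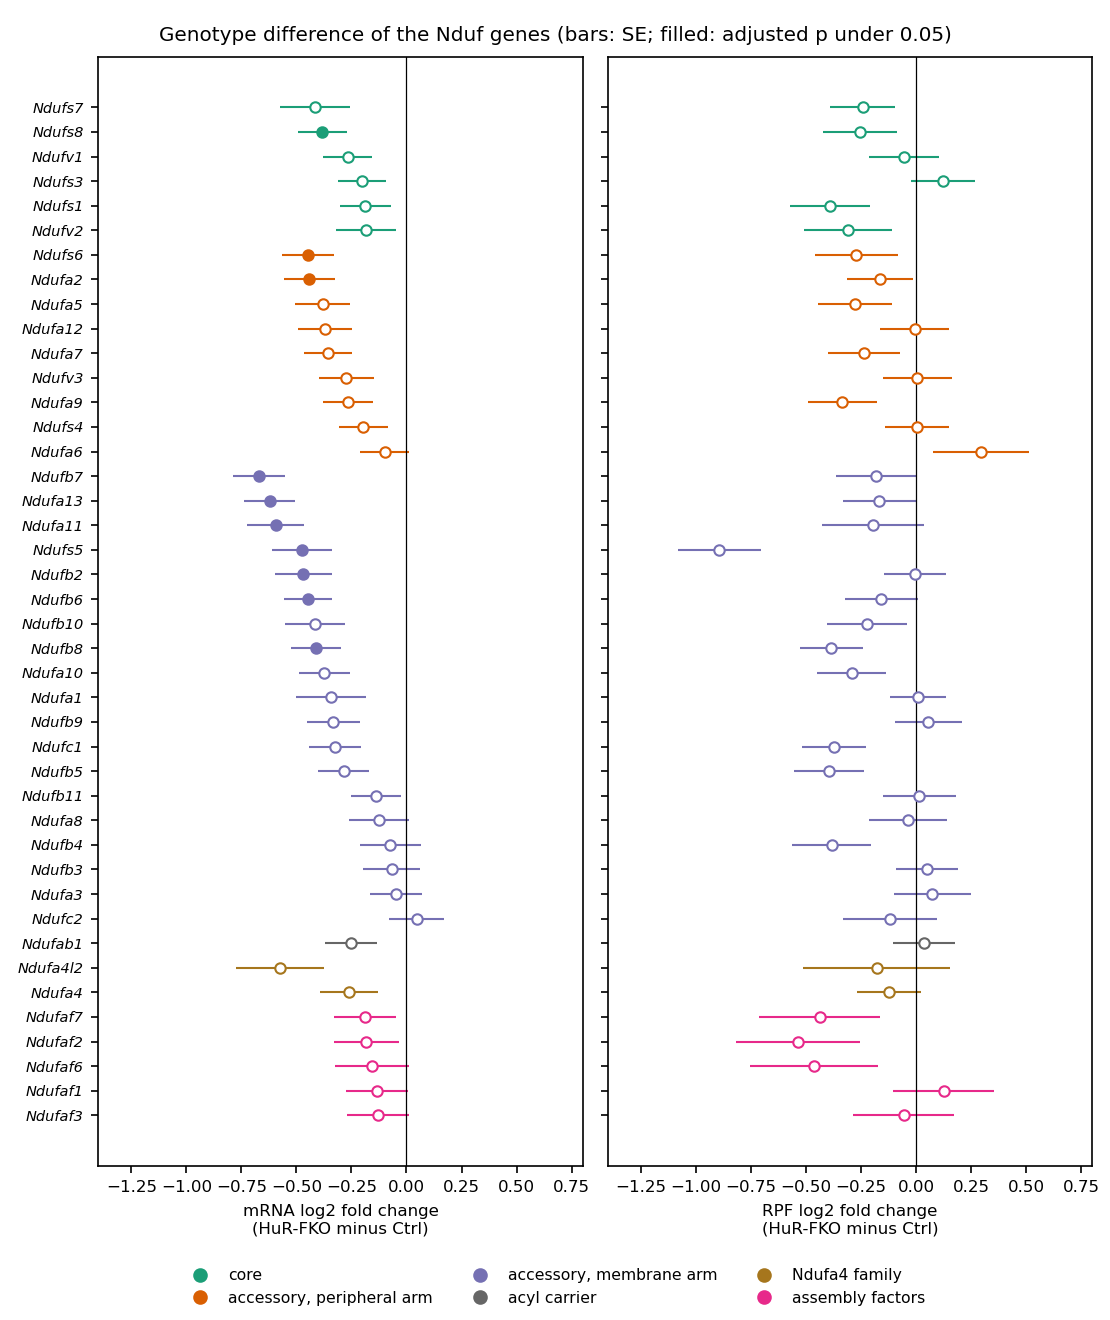
Log2 fold change (HuR-FKO minus Ctrl) of the Nduf genes in mRNA (left) and RPF (right), from limma on 2 libraries per genotype; bars are SE, colours are roles and filled points passed an adjusted p of 0.05. In mRNA every point drawn except Ndufc2 lies left of 0 and 10 are filled, whereas in RPF the points lie on both sides of 0, none is filled and Ndufs5 stands lowest at -0.89.

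Ndufs5 had the lowest RPF difference. It was at 76.2 and 99.9 RPKM in HuR-FKO RPF, against 171 and 155 RPKM in Ctrl RPF (-0.89 ± 0.19, limma adjusted p = 0.123), on 32 and 17 reads in HuR-FKO against 63 and 36 in Ctrl. The groups were well apart, yet the gene missed the threshold in the fit of the 4 RPF libraries. It passed with a replicate block, in the shared fit and with voom. Ndufaf2 was next, at 19.6 and 14.9 RPKM in HuR-FKO RPF against 29.1 and 21.8 RPKM in Ctrl RPF (-0.54 ± 0.28), but on only 13 and 4 reads in HuR-FKO against 17 and 8 in Ctrl.

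At the other end, Ndufa6, a LYR-motif subunit that docks the acyl carrier protein on the peripheral arm, was at 100.3 and 133 RPKM in HuR-FKO RPF against 110 and 80.4 RPKM in Ctrl RPF (0.30 ± 0.22). Ndufaf1 was at 50.7 and 37.9 RPKM in HuR-FKO RPF against 38.5 and 41.8 RPKM in Ctrl RPF (0.13 ± 0.23). The groups of both genes overlapped.

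Core subunits in RPF ranged from -0.39 (Ndufs1) to 0.12 (Ndufs3). Ndufs1 was at 141 and 108 RPKM in HuR-FKO RPF against 164 and 160 RPKM in Ctrl RPF, and Ndufs3 was at 258 and 231 RPKM in HuR-FKO RPF against 226 and 222 RPKM in Ctrl RPF. The groups did not overlap for either gene, and neither passed. Of the other core subunits, Ndufv1 was at 225 and 186 RPKM in HuR-FKO RPF against 207 and 218 RPKM in Ctrl RPF, and Ndufs8 at 121 and 109 RPKM in HuR-FKO RPF against 128 and 147 RPKM in Ctrl RPF. Ndufs7 was at 199 and 184 RPKM in HuR-FKO RPF against 217 and 236 RPKM in Ctrl RPF. Ndufv2 was at 176 and 127 RPKM in HuR-FKO RPF against 169 and 205 RPKM in Ctrl RPF. The groups overlapped for Ndufv1 and Ndufv2 and not for Ndufs7 and Ndufs8.

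The 10 members that fell in mRNA all had RPF differences below 0, with a median of -0.19 against -0.46 in mRNA. They were chosen by a large mRNA difference, so these 2 medians are not read as a weaker change in RPF. The RPF median of all 43 members was -0.18. Both HuR-FKO RPF libraries were below both Ctrl libraries for 4 of the 10, where 24.1% of all genes were. Ndufb2 had the least RPF difference of the 10, at 305 and 273 RPKM in HuR-FKO RPF against 295 and 283 RPKM in Ctrl RPF (-0.0033 on the log2 scale). Ndufb7 was at 164 and 223 RPKM in HuR-FKO RPF against 231 and 204 RPKM in Ctrl RPF, and Ndufa13 at 256 and 212 RPKM in HuR-FKO RPF against 240 and 286 RPKM in Ctrl RPF, with overlap in both.

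Whether RPF and mRNA moved by different amounts was tested as translational efficiency (TE), the interaction of genotype and assay over all 8 libraries. No member passed by limma, against a background of 0% of all genes higher and 0.0117% lower, and voom also called 0. At an unadjusted p under 0.05 there were 2 members, Ndufa13 and Ndufb2. The TE difference was above 0 for 32 of 43 members, with a median of 0.14 against -0.07 for all genes, and above 0 for 9 of the 10 members that fell in mRNA. The highest were Ndufb7 (0.49 ± 0.23, limma adjusted p = 0.632) and Ndufb2 (0.47 ± 0.19, limma adjusted p = 0.593), and the lowest were Ndufs5 (-0.42 ± 0.24) and Ndufaf2 (-0.36 ± 0.32). The 2 comparisons share the mRNA libraries, so a low mRNA value in HuR-FKO raises TE by construction. With the trend on transcript length and coding G+C content removed, the median TE difference turned to -0.023.

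Ribosome load, the RPF level over the mRNA level of a gene, was next set against that of the median gene in each pool and averaged over both genotypes. Of the 43 members, 26 were above the median gene and 2 below it by limma, where 34.1% of all genes were above and 34.1% below. The median member stood 0.44 above the median gene on the log2 scale. The 26 members with load above that of the median gene in all 4 pools and the 2 below it in all 4 pools are seen in the plot of ribosome load by pool. The mRNA and RPF libraries were made with different kits, so a bias of a kit for a gene and its ribosome load cannot be told apart.

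**Figure D3:**
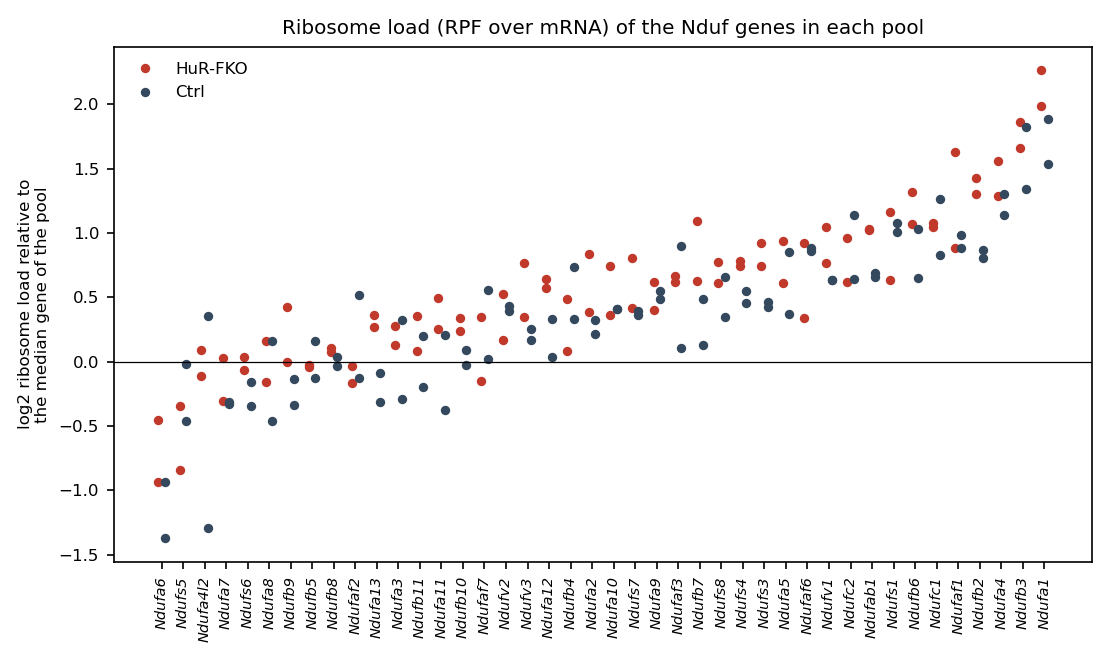
Log2 ribosome load (RPF over mRNA, relative to the median gene of the pool, at 0) of the Nduf genes, in order of the mean, with HuR-FKO pools left of Ctrl pools for each gene (2 pools each). Ndufa1, Ndufb3 and Ndufa4 stand highest in the plot and Ndufa6 and Ndufs5 lowest, with all 4 pools below 0.

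The 3 members with the highest load encode very small proteins, with coding sequences of 213 (Ndufa1), 315 (Ndufb3) and 249 bases (Ndufa4). Other members of like length differed, such as Ndufb2 (318 bases) at 1.10 and Ndufs5 (321 bases) at -0.42. Spearman's rho of load with coding length was -0.05 across the 43 members and -0.23 across the 8245 annotated genes. Ndufa1, an X-linked subunit of the membrane arm, had log2 loads of 2.26 and 1.99 in the HuR-FKO pools and 1.89 and 1.54 in the Ctrl pools (mean 1.92 ± 0.11 SE, limma adjusted p = 8.5e-07). In levels this was 177 and 200.0 RPKM in HuR-FKO mRNA beside 672 and 630 RPKM in HuR-FKO RPF, and 201 and 284 RPKM in Ctrl mRNA beside 622 and 671 RPKM in Ctrl RPF. Ndufb3, a subunit of the distal membrane arm, had log2 loads of 1.66 and 1.86 in the HuR-FKO pools and 1.82 and 1.34 in the Ctrl pools (mean 1.67 ± 0.10). Ndufa4 followed, at 1.56 and 1.29 in the HuR-FKO pools and 1.31 and 1.14 in the Ctrl pools (mean 1.32 ± 0.11).

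Further members with a load above 0.8 were Ndufb2 (1.10), Ndufaf1 (1.09), Ndufc1 (1.06), Ndufb6 (1.02), Ndufs1 (0.97), Ndufab1 (0.85) and Ndufc2 (0.84). Ndufab1 is the acyl carrier protein of mitochondria, which serves fatty acid and iron-sulfur cluster synthesis besides being part of complex I. Its load was 1.03 and 1.02 in the HuR-FKO pools and 0.66 and 0.69 in the Ctrl pools. Ndufb2 was at 1.30 and 1.43 in the HuR-FKO pools and 0.81 and 0.87 in the Ctrl pools, and Ndufb6 at 1.32 and 1.07 in the HuR-FKO pools and 0.65 and 1.03 in the Ctrl pools. For these genes both HuR-FKO pools lay above both Ctrl pools, although none passed the test of TE. The share of all genes with that order of pools is not given here, so it is not read as a difference. Ndufc1, a small membrane arm subunit, was at 1.05 and 1.08 in the HuR-FKO pools and 1.26 and 0.83 in the Ctrl pools, and its partner Ndufc2 at 0.96 and 0.62 in the HuR-FKO pools and 0.64 and 1.14 in the Ctrl pools. Ndufaf1 was at 1.63 and 0.88 in the HuR-FKO pools and 0.88 and 0.99 in the Ctrl pools, and Ndufs1 at 1.16 and 0.64 in the HuR-FKO pools and 1.08 and 1.01 in the Ctrl pools. The pools of these genes overlapped between genotypes.

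Ndufa6 was the member with the lowest load, at -0.94 and -0.45 in the HuR-FKO pools and -0.94 and -1.37 in the Ctrl pools (mean -0.93 ± 0.12 SE, limma adjusted p = 0.000107). Its mRNA was at 246 and 232 RPKM in HuR-FKO against 253 and 258 RPKM in Ctrl, above the median subunit. By contrast, its Ctrl RPF mean of 95.1 RPKM was the lowest of the structural subunits. Ndufs6, at 95.4 RPKM, was within its spread. Ndufa6 was 1 of the 2 members below the median gene by limma. Ndufs5 was the other, at -0.85 and -0.35 in the HuR-FKO pools and -0.02 and -0.46 in the Ctrl pools (mean -0.42 ± 0.12), and it did not pass without HuR-FKO replicate 1 or without Ctrl replicate 2. Ndufa4l2 had the most scattered values, 0.09 and -0.11 in the HuR-FKO pools and 0.35 and -1.29 in the Ctrl pools, on 13 and 4 RPF reads in HuR-FKO against 16 and 5 in Ctrl.

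Core subunits above the median gene in load were Ndufv1 at 0.77, Ndufs3 at 0.64, Ndufs8 at 0.60, Ndufs7 at 0.49 and Ndufv2 at 0.38 beside Ndufs1. In the peripheral arm 6 of 9 accessory subunits were above and 1 was below, in the membrane arm 9 of 19 were above and 1 was below, and of the Ndufaf assembly factors 3 of 5 were above. After removal of the trend on length and G+C content, 19 members (44.2%) were above and 9 (20.9%) below. In that fit 33.4% of all genes were above and 33.1% below. The median load fell to 0.17, and Ndufv2 turned to -0.18. Of the 26 members above the median gene in the main fit, 18 stayed above and 8 did not. Ndufa12, at 0.39 in the main fit, was among the 8 and passed below the median gene instead. Before that removal, 55.2% of members and 47.3% of other genes were above among transcripts of up to 1000 bases. Among longer transcripts these shares were 71.4% and 32.3%.

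Most complex I genes have short transcripts. By the GENCODE M21 annotation the median member transcript had 763 bases, against 2981 for all 8245 annotated genes of the table, with a median coding sequence of 456 against 1404 bases and a median 3′ UTR of 121 against 954 bases. HuR is known to bind U-rich and AU-rich stretches, mostly in introns and 3′ UTRs. The sequence AUUUA was present in the 3′ UTR of 16 members (37.2%), against 66.1% of all annotated genes, and in 2 of the 10 members that fell, Ndufb6 and Ndufs5. Genes of complexes II to V were alike in these features, with a median transcript of 745 bases, a median 3′ UTR of 175 bases and AUUUA in 39.0%.

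The mRNA difference moved with transcript length across the whole table. Spearman's rho across the 8245 genes was 0.38 for the mRNA difference and 0.04 for the RPF difference, given as a description since genes of the same libraries are not independent. The difference between the Ctrl replicates (replicate 1 minus replicate 2) moved with length to nearly the same degree (rho 0.34). That between the HuR-FKO replicates did not (rho -0.01). With coding G+C content, rho was -0.30 for the mRNA difference, 0.40 between the HuR-FKO replicates and -0.08 between the Ctrl replicates. Among the 43 members, the mRNA difference moved with length (rho 0.30) and against coding G+C content (rho -0.48).

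**Figure D4:**
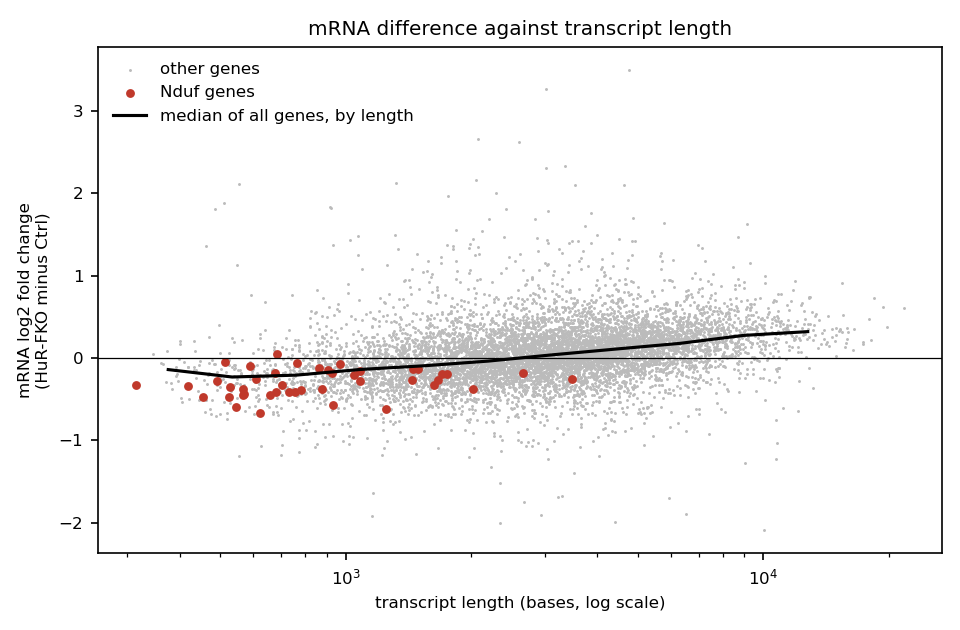
mRNA log2 fold change (HuR-FKO minus Ctrl) against transcript length in bases on a log scale, for the Nduf genes and the other annotated genes of the table; the line joins medians of all genes in length bins of at least 20 genes. Short transcripts lie lower than long ones over the whole table, and 29 of the 43 Nduf genes have transcripts of up to 1000 bases.

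Members were therefore set beside other genes in bins split at 1000 bases of transcript length. The longer bin is not matched for length, since its other genes reach 21690 bases and no member exceeds 3479 bases. Among transcripts of up to 1000 bases, the 29 members had a median mRNA difference of -0.36 and 9 fell (31.0%), whereas the 524 other genes had a median of -0.19 and 17.4% fell. Among longer transcripts, the 14 members had a median of -0.23 and 1 fell, whereas the 7678 other genes had a median of 0.05 and 5.64% fell. With the trend on length and coding G+C content taken out of each library, the median mRNA difference of the members was -0.14, 34 of 43 were below 0, and 2 fell, Ndufa13 and Ndufa10. These were 4.65% of the members, where 5.02% of all genes were lower in the same fit, so the members' share of lower calls was no longer above the background. The part of transcript length and base composition in the mRNA differences of single members was not tested further.

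Other genes of mitochondrial respiration were set beside the members, without a test of the difference between lists. Of 41 genes of complexes II to V, 9 fell and none rose in mRNA, with a median of -0.27, and examples were Uqcrq (-0.54) and Uqcr11 (-0.51), small subunits of complex III. Of 72 mitochondrial ribosomal proteins, 7 fell and none rose, with a median of -0.18. Their share of lower calls, 9.72%, was nearer to the 6.54% of all genes than that of complexes II to V, 22.0%. With the trend on length and coding G+C content removed, 2 genes of complexes II to V (4.88%) and 3 mitochondrial ribosomal proteins (4.17%) fell. In that fit 5.02% of all genes were lower, so neither share was above the background. Without that removal, 1 of 9 other assembly factors of complex I fell, Tmem70 (-0.53), which acts on the membrane arm and on ATP synthase. Of 11 genes taken as signs of mitochondrial mass, 1 fell, Phb (-0.45), with a median of -0.24, and all 11 differences were below 0. With the trend removed, 2 of these 11 fell (18.2%, where 5.02% of all genes were lower). All 11 stayed below 0, with a median of -0.18 beside -0.14 for the members. In lists this short, 1 call is close to the share over all genes, and 2 calls are few to read a share from.

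Of 8 regulators of mitochondrial biogenesis, 1 fell (12.5%), where 6.54% of all genes were lower. It was Esrra (-0.76), the nuclear receptor whose core sequence was searched above, and the median of the list was 0.01. In RPF none of these genes passed, and the median was -0.07 for complexes II to V and -0.08 for mitochondrial ribosomal proteins, beside -0.18 for the members. In ribosome load, 36 of 41 genes of complexes II to V were above the median gene and 4 below it, with a median of 0.86, whereas 19 of 72 mitochondrial ribosomal proteins were above and 22 below, with a median of -0.06.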

How the data were processed

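Deposited values were RPKM for each library, made by the authors from reads on the coding sequence. The labels name TopHat2 2.0.9, Bowtie 1.0.0 and cutadapt 1.8.3, and the counting program, genome build and annotation were not given in the sources used here. RPKM as the unit is inferred from the values. Every listed value is above 1 RPKM. Columns of the authors' group means and ratios were not used. The labels of the RPF samples also name a HuR antibody, whose role is unclear.

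Annotation came from GENCODE M21 (GRCm38), matched by RefSeq ID. At the coding length minus 1 base, 98.4% of the 8245 matched genes gave whole reads in all libraries (tolerance 0.001 read), which gave the depth. Reads without molecular identifiers cover counting error only.

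Values were analysed as log2(RPKM + 1) with limma 3.58.1 in R 4.3.3 (lmFit, eBayes with trend), after a filter at a mean of 1 RPKM in 1 genotype that removed no gene. On this scale the fold changes of low genes are understated. mRNA and RPF were each compared on their 4 libraries, TE as an interaction over 8 libraries, and ribosome load as RPF minus mRNA, centred on the median gene. P-values are two-sided and Benjamini-Hochberg adjusted over 8562 genes, called under 0.05. For 1 gene, an exact permutation test of 2 libraries against 2 reaches p = 0.333 at the lowest. The mRNA and RPF library of a pool came from the same tissue. Across genes they deviated together from their group means with r = 0.055 in HuR-FKO and r = 0.045 in Ctrl. The ribosome load by pool rests on this pairing. Fits with the pool as a block are in the closing section. The script was tested on simulated data.

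The members, the gene lists and the tests were chosen with earlier results of these data known. Members were named by a rule: values in every library were given for the core subunits, the members past the threshold (up to 10 per comparison and direction), the 3 highest and 3 lowest in level and load, and the 2 largest differences in each direction in RPF and TE. Results of 1 member are not reported here, in the text or by name in the plots, though the counts and medians include it. Of other lists, up to 2 passing genes were named. Alternatives were the pseudocount (0.1), a filter at 5 RPKM or none, median ratio and quantile scaling, replicate blocks, a shared fit, eBayes without trend, leaving out each pool, removal of trends on length and G+C content (splines with 4 degrees of freedom), and voom on recovered reads.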

Additional observations from a re-analysis of the deposited data

How the results depend on the processing

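In mRNA the count of 10 lower members was 10 with a pseudocount of 0.1, with a filter at 5 RPKM and with none, 12 with median ratio scaling and 13 with voom, each including all 10. It was 5 with quantile normalization, 4 with eBayes without trend, 0 in the shared fit and 2 after removal of the trend on length and G+C content (6.26%, 4.84%, 1.21% and 5.02% of all genes), where the median of the members was -0.14. Leaving out 1 library gave 0 to 16 lower members; a lone library was assumed to vary like the other group. The cause of these shifts was not tested. The labels do not tie a replicate number to a shared litter or day, and same-numbered libraries deviated together with r = 0.155 in mRNA and r = -0.0048 in RPF over 2 pairs, so they were not taken as pairs. A replicate block gave 21 lower members in mRNA and 1 in RPF, where lower calls over all genes also rose, to 12.04% and 0.783%. In RPF the shared fit and voom also called 1 member, where 1.27% and 0.982% of all genes were lower. A block for the pool changed no count in TE or ribosome load.

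The median TE difference turned to -0.023 after the same removal. There, ribosome load had 9 members below the median gene, where 33.1% of all genes were below. The median load was 0.17, Ndufv2 turned to -0.18, and Ndufa12 went from a call above the median gene to a call below it. Leaving out 1 pool gave 1 to 3 members below the median gene in load. Leaving out 1 library, Ndufaf1 ranged from -0.30 to 0.030 in mRNA and from -0.079 to 0.33 in RPF, turning without HuR-FKO replicate 1. Ndufc2 in mRNA ranged from -0.078 without HuR-FKO replicate 1 to 0.17 without HuR-FKO replicate 2, and was -0.011 without Ctrl replicate 2. RPF depth limits the low members most, since the assembly factors had as few as 4 reads in a library. A log2 difference well above its SE could still miss the threshold, as Ndufs5 did in RPF (-0.89 ± 0.19 SE, limma adjusted p = 0.123).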
